A study of Homo sapiens with 4 samples.

Results

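The 9 genes described here supply, clean up or break down deoxynucleotides, the building blocks of DNA. They are RRM1, RRM2, TYMS, TK1, DCK, DTYMK, DUT, DCTPP1 and SAMHD1. They were taken by name, not by a measured value, though earlier results of these data were known. They were matched by GENCODE symbol to 9 of the 58219 gene IDs of the deposited table. All 9 passed the filter on low values, among 16132 genes tested. RNA was sequenced from the human glioma line GBM8401 in its parental form (2 libraries) and from GBM8401 cells made resistant to temozolomide (TMZ), an alkylating drug that methylates DNA (2 libraries). The resistant cells were kept in 200 µM TMZ with regular changes of medium over 140 days, and no drug is named for the parental cells. The labels describe 1 resistant line. They call the 2 libraries of each group biological replicates without saying whether the drug was present at harvest or whether cultures were raised apart, so p-values measure the spread between these libraries.

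Cells make deoxynucleotides by 2 routes. In de novo synthesis, ribonucleotide reductase converts ribonucleotides to deoxyribonucleotides, and thymidylate synthase then makes the thymine nucleotide from the uracil one. In salvage, kinases phosphorylate deoxynucleosides taken up from outside the cell. Several of these genes are transcribed mainly in S phase under E2F factors, and hydrolases keep uracil and modified bases out of the pool. Ribonucleotide reductase has a large catalytic subunit, RRM1, and a small radical-bearing subunit, either the S-phase protein RRM2 or the damage-inducible RRM2B.

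The sequences that open this account are the stretches of the members' promoters that hold known cell-cycle promoter words. RefSeq promoters (build GRCh38.p14, 250 bases before to 50 bases after each start) were found for 9 of 9 members, at 14 starts. The CCAAT box, the site bound by NF-Y, was searched as CCAAT on both strands and was found in 5 of 9 members. It occurs in 34.6% of all 35116 promoters of this length and in 39.7% of the 27305 genes with one, so the word is common among promoters in general. RRM2 held 3 boxes at 1 of its starts. The windows below are given with 10 bases on each side, along the gene's strand, with the searched word in capitals (ATTGG is the box on the other strand).
RRM2, chr2:10122606-10122630, plus strand: caaggcgcagCCAATgggaagggtc
RRM2, chr2:10122636-10122660, plus strand: catggcacagCCAATgggaagggcc
RRM2, chr2:10122663-10122687, plus strand: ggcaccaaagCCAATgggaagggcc
TK1, chr17:78187115-78187139, minus strand: ccgggcgctgATTGGccccatggcg
TK1, chr17:78187084-78187108, minus strand: ccggctcgtgATTGGccagcacgcc
DTYMK, chr2:241686893-241686917, minus strand: ccggccccggCCAATcccttcgaat
DTYMK, chr2:241686825-241686849, minus strand: ttgacgccggCCAATgggagctccg
RRM1, chr11:4094647-4094671, plus strand: atgtccatatCCAATggggcccatg
The 3 boxes of RRM2 begin 123, 93 and 66 bases before the start and are followed by nearly the same run of bases. SAMHD1 also held 2 boxes, 49 and 38 bases before its start.

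The E2F-type word was searched as TTTCCCGC, TTTCGCGC, TTTGCCGC and TTTGGCGC on both strands, and no member held both this word and the CCAAT box. It was found in 3 of 9 members, against 3.31% of all promoters and 3.99% of genes. The 3 were TYMS, DUT at 1 of its 4 starts, and DCK, where the word lay after the start. These windows are shown because they hold the only matches among the members.
TYMS, chr18:657604-657631, plus strand: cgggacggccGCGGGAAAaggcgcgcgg
DUT, chr15:48332145-48332172, plus strand: ggcggggctgGCGGGAAAtttcggtttt
DUT, chr15:48332160-48332187, plus strand: aaatttcggtTTTGGCGCgctccctgcg
DCK, chr4:70993660-70993687, plus strand: ctgcctccgcGCGCCAAAgtcaaacccc
A match is a run of letters and not evidence of binding. The words cover only the strict form of the sites, and in DCTPP1 neither word was found in the window. A further word, the cell-cycle homology region TTTGAA, was found in 2 of 9 members, RRM1 and DUT, against 18.2% of genes.

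The libraries were of similar depth, with deposited totals of 23163310 to 25832511 scaled fragments. The lowest member value in any library corresponded to 567 fragments, a counting error of 4.20%. Glioma and neural markers were mixed: VIM, CD44, NES and OLIG2 were present, while GFAP and S100B were at or below 4.25 in every library and SOX2 at or below 10.5. The 14 markers of other cell types summed to 5681 to 7445 in parental and 6573 to 7919 in resistant libraries, overlapping between groups, with MOG at 0 throughout. The 3 fibroblast markers made up most of these sums. Blood cell sums (571 to 624 against 995 to 1051) and neuron sums (76.5 to 86.0 against 197 to 224) were higher in resistant libraries without overlap. Endothelium and oligodendrocyte sums were lower without overlap. The oligodendrocyte sum was MBP alone, which did not pass the test (limma adjusted p = 0.134). Each fibroblast and epithelium marker was higher in replicate 1 than in replicate 2 of its group, by 1.24-fold or more. CD68 and RBFOX3 were higher and CDH5 lower in resistant cells. The other blood, neuron and endothelium markers, PTPRC, CD3E, SYP and PECAM1, did not pass the test. Their log2 fold changes were 0.08, 0.65, 0.00 and 0.25, so those sums did not move through all their markers. Of the line's own markers NES, VIM and CD44 were also lower, with log2 fold changes of −1.06, −0.61 and −0.47 (limma adjusted p = 1.04e-04, 1.05e-03 and 1.46e-03). The part of these markers in the results was not tested.

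All 9 genes fell in resistant cells. The test was limma on log2(value + 1) over all genes, with Benjamini-Hochberg adjusted p under 0.05 counted as a change. Of all genes tested 37.1% changed, 20.9% lower and 16.2% higher, so lower calls were common in these data. For 9 of 9 members both resistant libraries lay below both parental ones, as for 36.4% of all genes. The median log2 fold change of the members was −0.61, against −0.02 over all genes. Changes ranged from −0.99 for DCTPP1 to −0.21 for RRM1. Scaling to the library total changed the split of all calls from 43.7% to 56.9% higher. With that scaling 7 of the 9 members were called lower, against 17.2% of all genes. Without resistant replicate 1, which left that group with 1 library, the members' log2 fold changes ranged from −0.93 to −0.18. Not every member was still called, and fewer genes were called over all genes too. In RNA from bulk cultures, fewer cells that express a gene and less RNA per cell cannot be told apart.

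**Figure D1:**
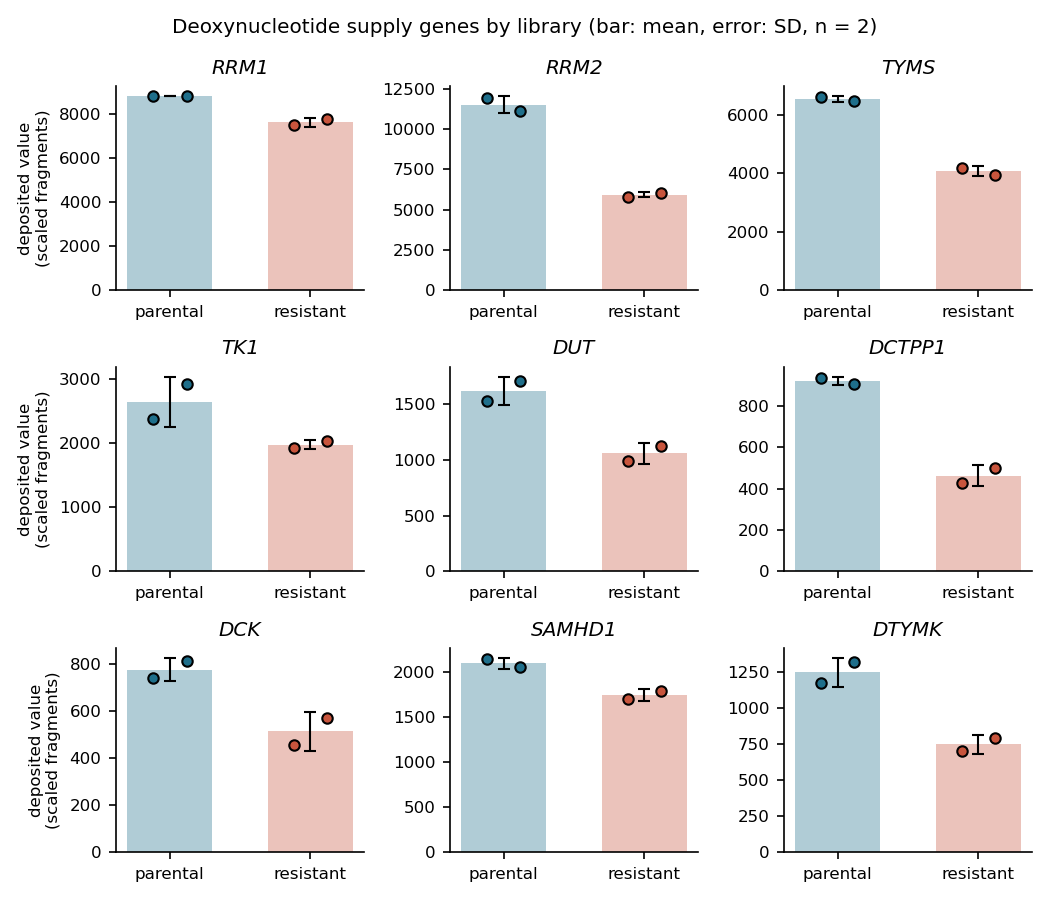
Deposited value (scaled fragments, linear axis from 0) of each of the 9 genes, with 1 point per library, bars for the group mean and error bars for the SD (n = 2). In every panel both resistant points lie below both parental points, with the widest gap as a percentage of the nearer parental value in RRM2 (45.8%) and the narrowest in RRM1 (11.9%).

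RRM1 and RRM2 of ribonucleotide reductase both fell. RRM2 (ENSG00000171848, chromosome 2, 10120698 to 10131419, plus strand), the S-phase small subunit, had values of 11900.5 and 11126 in parental libraries and 5813 and 6025 in resistant libraries. The higher resistant library was 45.8% below the lower parental one. The means were 11513 ± 548 and 5919 ± 149.9 (SD, n = 2), a fall of 1.94-fold (log2 fold change −0.96 ± 0.07, SE, adjusted p = 9.18e-05). RRM1 (ENSG00000167325, chromosome 11, 4094707 to 4138876, plus strand), the large catalytic subunit, had values of 8826 and 8816 in parental libraries and 7489.7 and 7771 in resistant libraries. The parental pair was nearly equal, and the gap to the resistant pair was 11.9%. RRM1 fell 1.16-fold (log2 fold change −0.21 ± 0.07, SE, adjusted p = 0.0403). This call rested on all 4 libraries and on the scaling. It was lost without any 1 of the libraries (adjusted p 0.101 to 0.21), with scaling to the library total (0.206) and with median-of-ratios factors (0.0507).

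The balance of subunits shifted with these changes. The deposited RRM2 value, not corrected for length, was 1.35 and 1.26 times that of RRM1 in parental libraries and 0.776 and 0.775 times in resistant libraries. Per kb of exon the ratio was 1.06 and 0.99 in parental libraries against 0.609 and 0.608 in resistant ones. The log2 ratio of deposited values changed by −0.75, from 0.38 ± 0.07 to −0.37 ± 0.00 (SD, n = 2), with no overlap. A two-sided exact permutation test gave p = 0.333, the smallest that 2 against 2 libraries allow. The gene AC007240.1, which overlaps RRM2 on the same strand, was not analysed here.

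RRM2B, the alternative small subunit, outside the 9 members, went the other way. Its values were 1810.0 and 2286 in the parental libraries against 4163 and 4402 in the resistant ones, with no overlap. RRM2B rose from a mean of 2048 ± 337 to 4282 ± 169 (SD, n = 2; log2 fold change 1.07 ± 0.11, SE, adjusted p = 3.99e-04). Per kb of annotated exon, RRM2B made up 12.7% and 16.5% of the summed RRM2B and RRM2 values in parental libraries and 40.7% and 41.2% in resistant libraries. The sum of both small subunits was lower nonetheless, at 2562 and 2502 per kb against 1842 and 1925. On deposited values the log2 ratio of RRM2B to RRM2 rose from −2.50 ± 0.31 to −0.47 ± 0.02 (SD, n = 2). The exact permutation p was 0.333, again the smallest possible.

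**Figure D2:**
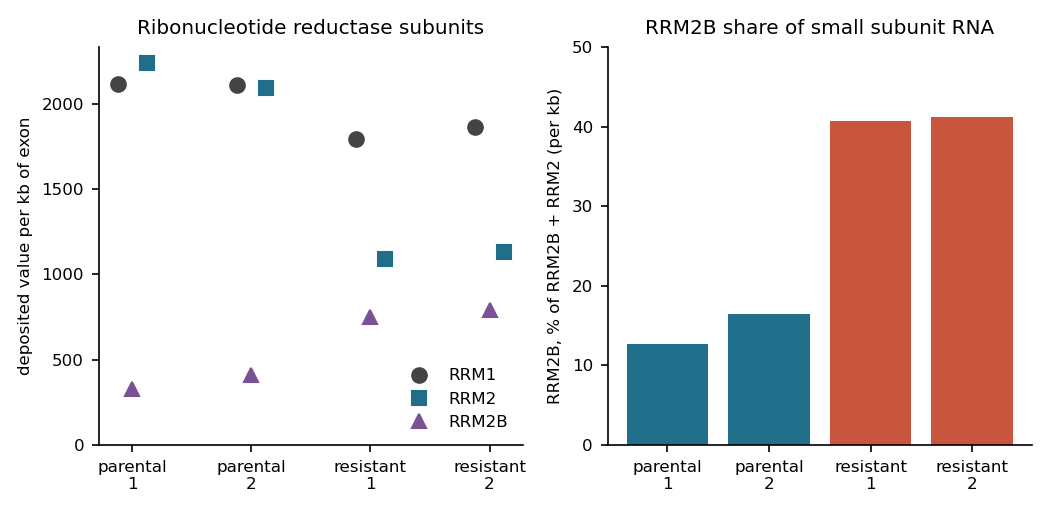
Left, value per kb of annotated exon (linear axis from 0) of RRM1, RRM2 and RRM2B in each library; right, RRM2B as a percentage of RRM2B plus RRM2 per kb. RRM1 and RRM2 are level in parental libraries, near 2112 and 2163 on average, and separate in resistant ones, while the RRM2B share moves from 12.7% and 16.5% to 40.7% and 41.2%.

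TYMS and DTYMK, which make and then phosphorylate dTMP, both fell. TYMS (ENSG00000176890, chromosome 18, 657604 to 673578, plus strand) encodes thymidylate synthase, the target of 5-fluorouracil, which methylates dUMP to dTMP. Its values were 6623 and 6481 in the parental libraries against 4194 and 3945 in the resistant ones, a gap of 35.3% between the nearest libraries. TYMS fell 1.61-fold (log2 fold change −0.69 ± 0.07, SE, adjusted p = 3.31e-04). DTYMK (ENSG00000168393, chromosome 2, 241675742 to 241686991, minus strand), the thymidylate kinase through which both routes pass, had values of 1175 and 1317 against 701 and 795. It fell 1.67-fold (log2 fold change −0.74 ± 0.11, SE, adjusted p = 1.23e-03). Both calls held in 14 of 14 alternative settings.

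TYMS shares its locus with genes read from the other strand, and the strand setting of the counting is not given in the sources used here. ENOSF1, which overlaps its end, had parental values of 1316 and 1542 and resistant values of 1666 and 1563 (log2 fold change 0.18 ± 0.10, SE, adjusted p = 0.196). TYMSOS, the RNA read outward from the TYMS promoter, rose from 36.6 and 50.7 to 81.3 and 101.9 (log2 fold change 1.06 ± 0.26, SE, adjusted p = 0.0133). The TYMSOS call was lost without resistant replicate 2 (adjusted p = 0.104). Neither gene was called lower in the resistant cells.

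Of the salvage kinases, both members fell by less than RRM2. TK1 (ENSG00000167900, chromosome 17, 78174075 to 78187233, minus strand), the cytosolic thymidine kinase used as a proliferation marker, had parental values of 2376 and 2928 and resistant values of 1932 and 2031. Its parental libraries lay further apart than the gap of 14.5% between the groups. TK1 fell 1.33-fold (log2 fold change −0.41 ± 0.11, SE, adjusted p = 0.0175). Without parental replicate 2 the log2 fold change was −0.26 (adjusted p = 0.0682), and without resistant replicate 1 the adjusted p was 0.0827. DCK (ENSG00000156136, chromosome 4, 70992538 to 71030914, plus strand), which phosphorylates deoxycytidine and activates cytarabine and gemcitabine, had values of 742 and 813 against 455 and 573. DCK fell 1.52-fold (log2 fold change −0.60 ± 0.13, SE, adjusted p = 8.26e-03), and the adjusted p was 0.0646 without resistant replicate 1. MOB1B overlaps DCK on the same strand and had a log2 fold change of 0.01 ± 0.11 (SE).

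The mitochondrial salvage kinases had positive log2 fold changes that did not pass the test as fitted here. DGUOK, the deoxyguanosine kinase of mitochondria, had parental values of 491 and 555 and resistant values of 552 and 563 (log2 fold change 0.10, 95% interval −0.16 to 0.35, adjusted p = 0.547). TK2, the mitochondrial thymidine kinase, named after its values were seen, had values of 321 and 284 against 428 and 368 (log2 fold change 0.39, interval 0.08 to 0.70, adjusted p = 0.0527). TK2 passed as higher in 6 of 14 alternative settings, among them scaling to the library total (adjusted p = 0.0208). The difference between the mitochondrial and the cytosolic enzymes was not tested.

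The hydrolases of the pool also fell. DCTPP1 (ENSG00000179958, chromosome 16, 30423619 to 30430075, minus strand), which degrades dCTP and its modified forms, had parental values of 934 and 905 and resistant values of 427 and 499. The groups were 44.9% apart at their nearest. It fell 1.99-fold, the widest change of the members (log2 fold change −0.99 ± 0.11, SE, adjusted p = 4.23e-04). ZNF771 overlaps the whole of DCTPP1 on the other strand, at values of 100.1 to 113, and did not pass the test (adjusted p = 0.695). DUT (ENSG00000128951, chromosome 15, 48331011 to 48343373, plus strand), the dUTPase that keeps uracil out of DNA and makes dUMP for TYMS, had values of 1529 and 1708 against 990.2 and 1124. DUT fell 1.53-fold (log2 fold change −0.61 ± 0.10, SE, adjusted p = 2.24e-03). The gene makes nuclear and mitochondrial forms from different starts, which a gene-level value sums.

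SAMHD1 (ENSG00000101347, chromosome 20, 36889773 to 36951901, minus strand) cleaves dNTPs to deoxynucleosides and so works against the synthetic enzymes. Its values were 2144 and 2057 in the parental libraries against 1703 and 1796 in the resistant ones, with 12.7% between the nearest. SAMHD1 fell to 83.3% of its parental mean (log2 fold change −0.26 ± 0.08, SE, adjusted p = 0.0324). The call did not hold when parental replicate 1, resistant replicate 1 or resistant replicate 2 was left out (adjusted p 0.104, 0.215 and 0.0939) and with scaling to the library total (0.117).

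**Figure D3:**
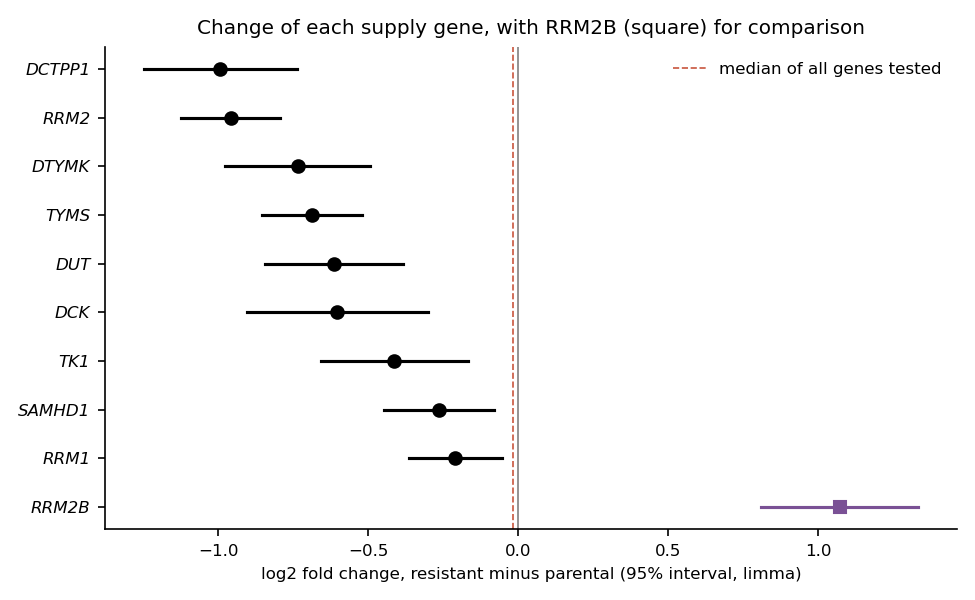
Log2 fold change of each member (circles) and of RRM2B (square), resistant minus parental, with limma's 95% intervals; the dashed line is the median of all genes tested, −0.02. The 9 intervals lie below 0, from −1.25 to −0.74 for DCTPP1 up to −0.36 to −0.05 for RRM1, and that of RRM2B lies above it.

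Levels of the members were compared per kb of merged exon length. In parental cells TYMS was highest at 2653 ± 40.5 per kb, followed by RRM2 at 2163 ± 103, RRM1 at 2112 ± 1.75 and TK1 at 1425 ± 209.8 (SD, n = 2). RRM2 and RRM1 overlapped in their libraries. DCTPP1, DTYMK and DUT followed at 582, 508 and 440.4, then DCK at 241 and SAMHD1 at 187. In resistant cells RRM1 was highest at 1827 ± 47.6, above TYMS at 1647 ± 71.2, RRM2 at 1112 ± 28.2 and TK1 at 1065 ± 37.7. DTYMK, DCTPP1 and DUT lay between 288 and 305 with overlapping libraries, and DCK and SAMHD1 at 159 and 155 overlapped too. Exon lengths are unions over annotated transcripts, up to 11.3 kb for SAMHD1, so a gene with rarely used exons is placed too low.

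Together the members summed to 36248 and 36152 scaled fragments in the parental libraries against 23705 and 24558 in the resistant ones. RRM1 and RRM2 held 55.2% to 57.2% of that sum in every library.

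Across the other supply genes, lower calls outnumbered higher ones. The 57 genes of 9 role lists included the members. Of the 48 others 47 were tested, 23 fell and 3 rose, with a median log2 fold change of −0.26. That is 48.9% lower, against 20.9% of all genes. Higher calls made up 16.2% of all genes. The 23 include CDA, which met the filter on low values only through its parental libraries. The 3 that rose were RRM2B, SHMT2 and ADA. With scaling to the library total 21 were lower and 7 higher, the added ones being TK2, NME2, APRT and SLC25A36. Over all genes that setting called 17.2% lower. Fewer of these genes were called lower when any 1 library was left out, as was so over all genes.

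In the thymidylate and folate cycle, which carries the methyl group used by TYMS, 2 of 5 other genes fell and 1 rose. Over all genes 20.9% were lower and 16.2% higher. MTHFD1, a cytosolic folate enzyme, fell 1.39-fold (adjusted p = 1.48e-03). SHMT2, the mitochondrial serine hydroxymethyltransferase, rose 1.30-fold (adjusted p = 5.11e-03). SHMT1, the cytosolic form, had resistant values of 60.2 and 135.9 on either side of the parental ones (adjusted p = 0.91). DCTD, which deaminates dCMP to supply dUMP, had values of 1277 and 1229.5 against 1265 and 1266, with a log2 fold change of 0.01 (95% interval −0.18 to 0.21).

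Among the other mono- and diphosphate kinases, 2 of 6 fell, against 20.9% of all genes. CMPK2, a mitochondrial kinase induced by interferon, fell 1.89-fold at low values of 30.6 to 69.8 (adjusted p = 0.0262). Its call was lost when parental replicate 2 or either resistant library was left out (adjusted p = 0.11, 0.0791 and 0.125). NME2 was at 0.10 on the log2 scale (adjusted p = 0.351). Among the other clean-up and breakdown genes, 2 of 9 fell and 1 rose, a share of 22.2% lower that is near the 20.9% of all genes. The 2 include CDA, which met the filter on low values only through its parental libraries. PNP, the purine nucleoside phosphorylase, fell 1.39-fold (adjusted p = 2.63e-03), and ADA, the adenosine deaminase, rose 1.51-fold (adjusted p = 0.0133). The ADA call did not hold with resistant replicate 1 or resistant replicate 2 left out (adjusted p = 0.0513 and 0.0842). CDA, the cytidine deaminase, fell from 10.6 and 14.3 to 0.753 and 2.55, a level of 1 and 3 fragments at which no fold is given, and the adjusted p was 0.0615 without resistant replicate 1. TYMP, thymidine phosphorylase, was at 0.01 on the log2 scale (adjusted p = 0.986), and its sign depended on which library was left out.

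RNA of several enzymes of de novo ribonucleotide synthesis was lower, beside 20.9% lower over all genes. Of the pyrimidine genes 4 of 5 fell: UMPS, which makes UMP, by 1.65-fold (adjusted p = 4.00e-04), CTPS1, which makes CTP, by 1.49-fold (1.02e-03), the first enzyme CAD by 1.31-fold (8.80e-03) and DHODH by 1.39-fold (0.0277). The DHODH call ended without parental replicate 1 or resistant replicate 1 (adjusted p = 0.0895 and 0.217). CTPS2 did not pass the test (adjusted p = 0.319). In purine synthesis 7 of 10 fell, against 20.9% of all genes. The 7 included IMPDH1, at 1.72-fold, and GMPS, at 1.51-fold, which lead to GMP (adjusted p = 4.72e-04 and 5.55e-04). IMPDH2, the other IMP dehydrogenase gene, named after its values were seen, did not pass the test (log2 fold change 0.04, adjusted p = 0.712). Its parental mean per kb was 3778, against 364 for IMPDH1. PAICS fell 1.47-fold and PPAT, the committed step, 1.39-fold (adjusted p = 5.40e-04 and 2.23e-03). GART was at −0.05 on the log2 scale (adjusted p = 0.715), with a sign that turned under scaling to the library total.

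Of the precursor and salvage genes 3 of 5 fell, against 20.9% of all genes. PRPS1 and PRPS2, which make the ribose donor PRPP, fell 1.33-fold and 1.30-fold (adjusted p = 3.66e-03 and 6.54e-03), and PRPS2 had an adjusted p of 0.0578 without resistant replicate 2. ADK fell by 0.26 on the log2 scale (adjusted p = 0.0482), a call lost in 7 of 14 alternative settings. APRT was at 0.27 on the log2 scale (adjusted p = 0.104). Of the transporters 3 of 4 tested genes fell, against the same 20.9%. SLC29A1, the equilibrative nucleoside transporter that carries nucleosides into the cell, fell 1.83-fold (adjusted p = 4.58e-04). SLC25A33, a mitochondrial pyrimidine nucleotide carrier, fell 1.83-fold (adjusted p = 6.54e-03). SLC25A36 was at 0.25 on the log2 scale (adjusted p = 0.128), and SLC29A2 was below the filter.

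**Figure D4:**
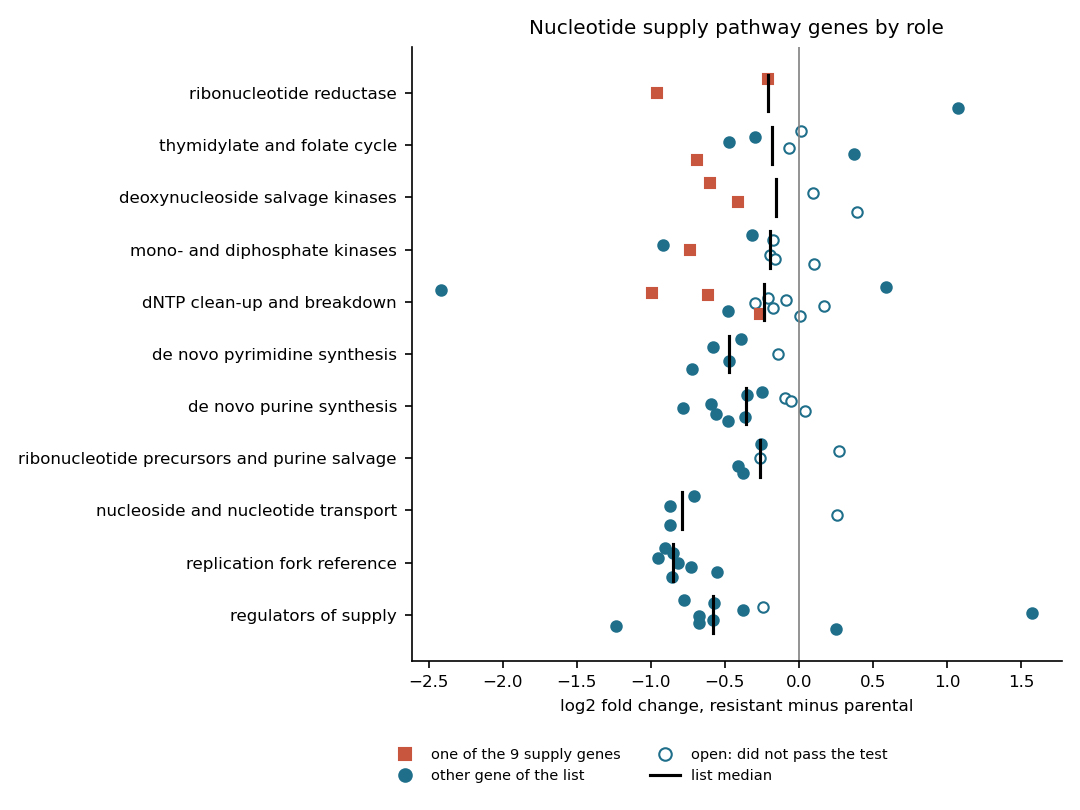
Log2 fold change, resistant minus parental, of every tested gene of 11 lists by role; squares are the 9 supply genes, filled circles other genes that passed the test, open circles those that did not, and black bars list medians. The members lie left of 0 in every list that holds them, while RRM2B at 1.07 and CDKN1A at 1.58 lie furthest to the right.

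The replication fork genes, given as a reference for S-phase transcription, were also lower. All 7 fell, against 20.9% of all genes, with a median log2 fold change of −0.85. The range was from −0.95 for MCM4 to −0.55 for MCM7. RRM2 and DCTPP1 lay at or beyond the lower end of that range, TYMS, DTYMK, DUT and DCK within it, and TK1, SAMHD1 and RRM1 above it. Of 10 tested regulators 7 fell and 2 rose, against 20.9% lower and 16.2% higher over all genes. E2F8, an E2F repressor itself expressed in S phase, fell 2.36-fold, CCNA2, the S-phase cyclin, 1.71-fold and the repressor E2F7 1.60-fold (adjusted p 1.01e-04 to 4.85e-04). CDKN1A, which encodes the CDK inhibitor p21, rose 2.98-fold from 3194 and 3233 to 9513 and 9666 (adjusted p = 1.36e-05). CDK1 was at −0.24 on the log2 scale (adjusted p = 0.0835). These lists share S-phase expression with the members, and how far the members' fall follows the share of cells in S phase was not tested.

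The 5 coding genes whose values over the 4 libraries lay nearest to those of RRM2 were PGBD1, SPATS2L, SPATA33, KANK1 and TUBA1C. The measure was the Euclidean distance of centred log2(value + 1), from 0.03 to 0.07, among 13312 genes. With 4 libraries in 2 groups, such likeness says little beyond a similar fold change. DCTPP1 was the nearest member, at 0.13, and ranked 74 among these genes. RRM1 was the farthest, at 0.75.

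**Figure D5:**
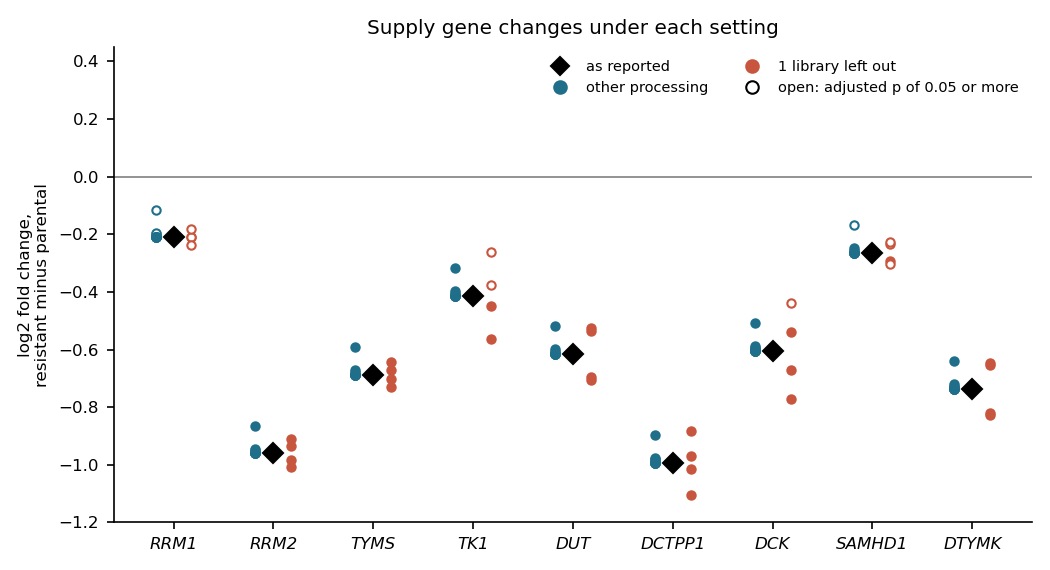
Log2 fold change of each member as reported (diamond), under other processing (left circles) and with 1 library left out (right circles); open symbols have an adjusted p of 0.05 or more. Every value lies below 0, and open symbols occur for RRM1, TK1, DCK and SAMHD1.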

How the data were processed

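Total RNA was made into libraries with a strand-specific kit, per the labels' protocols. The authors deposited 1 table of a signal, in which each gene's fragments carry the scale of their library and no correction for length. The submitters' processing notes name Cufflinks 2.2.1, Cuffdiff, HISAT2 2.1.0, Trimmomatic 0.36, SAMtools 1.2 and the build GRCh38.p10. Not given in the sources used here were the annotation release, the strand setting and the scaling method. Of values up to 20 fragments, 95.7% to 96.1% were whole within 0.05 after division by the library's step, and the totals correspond to 27019288 to 30760093 fragments. Whole numbers were not recovered for every gene, so limma on log values was used in place of a count test.

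Genes with a value of at least 10 in 2 libraries and a sum of at least 15 were tested in limma 3.58.1 (R 4.3.3) on log2(value + 1), with trend and robust moderation, the group as sole term, two-sided. This scale understates the change of low genes. Symbols, coordinates and exon lengths came from GENCODE 29 (GRCh38), which held 57881 of the IDs. The method was run on simulated data with far fewer changed genes than here, so that run does not bear on the calls of single members. Of 13 pseudogenes named after members, none exceeded 0.378% of its parent gene.

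Members and lists were chosen with earlier results of these data known. Named genes were the members, up to 4 changed genes and the gene with the largest p of each role list, RRM2B, SHMT1, DCTD, genes overlapping a member and the 5 nearest to RRM2. Some genes of the lists are counted but not reported here by name. Alternatives changed scaling, pseudocount, filter and variance model, added a replicate block, or left out 1 library.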

Additional observations from a re-analysis of the deposited data

How the results depend on the processing

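All 9 members kept a negative log2 fold change in each of the 14 alternative settings. RRM2, TYMS, DUT, DCTPP1 and DTYMK kept their call in 14 of 14, DCK in 13, TK1 in 12, SAMHD1 in 10 and RRM1 in 8. The cause of the lost calls was not tested, except that leaving out a library leaves fewer samples. With scaling to the library total RRM1 was at −0.11 and SAMHD1 at −0.17, and with median-of-ratios factors RRM1 was at −0.19. With 1 library left out, the lone sample of a group is assumed to vary like the others. The log2 fold changes then ranged from −0.24 to −0.18 for RRM1, −0.56 to −0.26 for TK1, −0.77 to −0.44 for DCK and −0.30 to −0.23 for SAMHD1.

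The count of changed genes without 1 library ranged from 3593 to 5476, of higher genes from 1348 to 2783 and of lower genes from 2079 to 3147, and 5 to 7 members were called. Salvage kinases called numbered 0 to 3, mono- and diphosphate kinases 1 to 3, clean-up genes 3 to 5, purine synthesis genes 4 to 6 and precursor genes 1 to 2. Those counts by role include any members in the list and calls in either direction. Among genes outside the members, none of them called, the sign turned under scaling to the library total for GART (0.041) and SHMT1 (0.029). Without 1 library the log2 fold change ranged from −0.013 to 0.042 for DCTD, −0.32 to 0.34 for TYMP (also −0.16), −0.19 to 0.084 for GART and −0.64 to 0.52 for SHMT1 (also 0.097).

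The replicate numbers are tied to no shared day or culture. Same-numbered deviations correlated at 0.265 over genes, and with 2 pairs this does not establish a pairing. With the replicate block 8624 genes changed, and members lower remained 9 of 9, against 29.3% of all genes. With so few libraries that fit leaves little spread within a gene from which to estimate its variance. The limma adjusted p of RRM2 with the block was 1.17e-48, so the calls of this setting count for little as a check. Mono- and diphosphate kinases called in either direction, with the member DTYMK included, were 6 of 7, against 3 without the block. Precursor genes called were 5 of 5, against 3 without the block. Of the supply genes outside the members, 28 were lower and 6 higher with the block. Counting error was at most 4.20% for any member value, and CDA rested on 1 and 3 fragments in the resistant libraries. The spread of SHMT1 between resistant libraries was beyond its counting error of 11.2%.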
